A study of Mus musculus with 12 samples.

Results

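The genes described here are 41 members of the glutathione, NRF2 and metallothionein systems, and they were taken as the rows of the expression table whose gene name was on a list of members. All 41 were found among the 24674 genes of the table. They comprised 2 regulators, 2 target enzymes of NRF2, 4 genes of glutathione synthesis and recycling, 5 of the thioredoxin and peroxiredoxin system, 4 glutathione peroxidases, 3 superoxide dismutase and catalase genes, 14 soluble glutathione transferases, 3 microsomal glutathione transferases, 2 metallothioneins and 2 ferritin chains. Of the members, 40 reached a mean of 1 TPM in at least 1 group, and the exception was Gsta2.

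Glutathione is a small thiol that cells make from glutamate, cysteine and glycine, use to reduce peroxides and attach to reactive compounds through glutathione transferases. NRF2, the product of Nfe2l2, is a transcription factor that KEAP1 holds at a low level by directing its degradation. When KEAP1 is modified by oxidants or electrophiles, NRF2 accumulates and binds antioxidant response elements in front of genes for glutathione synthesis, conjugation and quinone reduction. Metallothioneins are short cysteine-rich proteins that bind zinc and copper, and their genes carry metal response elements read by MTF1.

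RNA was sequenced from 12 samples of organoids, small 3-dimensional cultures grown in a gel, that were derived from basal cells of the mouse prostate. Every culture was wild type and of the C57BL/6 strain, with no genetic modification in any group, and the 3 samples of a group were labelled 1 to 3. The groups were vehicle, UK5099, butyrate and UK5099 together with butyrate, which is called the combination. UK5099 blocks the carrier that brings pyruvate into mitochondria, while butyrate is a fatty acid that acts against histone deacetylases. The labels give neither the animals' age nor dose or duration, and do not say whether the 3 samples came from separate animals or cultures, so the p-values measure only the spread between these samples.

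Expression was given as TPM, abundances scaled to gene length and to a common total, which the depositors computed over the whole gene, introns included. Between 33251844 and 43498956 fragments per sample could be recovered from the steps of these values. All 5 basal markers listed were above 1 TPM in vehicle, with summed levels of 6531 to 6657 TPM in vehicle, 13496 to 13878 under UK5099, 6920 to 7158 under butyrate and 9983 to 10391 under the combination. With butyrate Krt5 (3102 to 3235 TPM, vehicle 1838 to 1855) and Trp63 were higher. Krt14 (1365 to 1432 TPM, vehicle 1651 to 1691), Krt15 and Itga6 were lower with butyrate, and Krt15 was lower with the combination too. Among 6 luminal markers with values, 5 were above 1 TPM in vehicle, and their sum was 4157 to 4328 TPM in vehicle, 2352 to 2511 under UK5099, 2265 to 2305 under butyrate and 1405 to 1593 under the combination. Unlike that sum, Tmprss2 was higher than vehicle (17.7 to 19.3 TPM) under UK5099 (21.3 to 22.6) and butyrate (21.3 to 23.2). Dpp4, below 1 TPM, was higher with butyrate and the combination. Markers of smooth muscle, endothelium and neuroendocrine cells each summed to at most 0.645 TPM in any sample. The 6 stromal markers summed to 2.27 to 2.88 TPM outside butyrate and to 10.6 to 10.97 TPM with butyrate, of which Dcn made 9.37 to 9.62 TPM. The leukocyte gene Ptprc was at or below 0.00425 TPM in all samples, while the lysosomal gene Cd68 was at 23.8 to 24.8 TPM in vehicle and 86.4 to 97.1 TPM with the combination. In such bulk samples fewer cells of a type and less RNA per cell cannot be told apart, and the part of the marker shifts in the member results below was not tested.

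Promoter sequences were available for 35 of the 41 members, in 44 windows of 250 bases before an annotated start site (RefSeq, GRCm38.p6). Gsta4, Hmox1, Gclc, Gsr, Prdx6 and Gstt2 had no entry. The core of the antioxidant response element, TGACNNNGC, was searched on both strands and was found in 9 members (9 of 44 windows, 20.5%, against 10.2% of all 32851 windows). The members were Nfe2l2, Gclm, Txnrd1, Prdx1, Sod1, Gsta3, Gstm5, Mgst1 and Mt2. Txnrd1 and Mgst1 also had windows at other annotated start sites that lacked the core. For the metal response element a loose form of the core was used, TGCNCNC, in which N is any base. These letters, called the metal core here, were found in 43.2% of member windows and in 44.4% of all windows. The AP-1 core, TGANTCA, which reads the same on both strands and was counted once per place, was found in 15.9% of member windows and 6.75% of all windows. The antioxidant and AP-1 cores overlapped in Prdx1 and Mt2, and the antioxidant and metal cores overlapped in Gclm. A match is a run of letters and not a shown binding site.

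The first set shows the antioxidant core in a subunit of the enzyme that begins glutathione synthesis, in thioredoxin reductase and in a peroxiredoxin, with the match in capitals, 5′ to 3′ along the gene. The windows are chr3:122245397-122245456 (plus strand), chr10:82859086-82859145 (plus strand) and chr4:116685439-116685498 (plus strand). For Txnrd1 the start site whose window held a match was chosen.
Gclm: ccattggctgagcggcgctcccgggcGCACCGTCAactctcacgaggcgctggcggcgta
Txnrd1: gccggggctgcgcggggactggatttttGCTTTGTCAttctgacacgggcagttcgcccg
Prdx1: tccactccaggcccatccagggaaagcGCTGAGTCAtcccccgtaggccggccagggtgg

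The next set shows bases before annotated start sites of the metallothionein genes, with the metal core in capitals. They come from chr8:94172368-94172617 and chr8:94178989-94179088, both on the plus strand. Mt2 held these loose letters at 5 places in its 250 bases, which 0.344% of all windows did at 5 or more places. The Mt1 window held them at 1 place. Each window ends at an annotated start site, so letters downstream of that site were not counted. Whether the Mt1 window covers the promoter in use was not tested, so the places do not rank these genes. The loose letters are broader than a strict core, so the places are not a count of metal response elements.
Mt2: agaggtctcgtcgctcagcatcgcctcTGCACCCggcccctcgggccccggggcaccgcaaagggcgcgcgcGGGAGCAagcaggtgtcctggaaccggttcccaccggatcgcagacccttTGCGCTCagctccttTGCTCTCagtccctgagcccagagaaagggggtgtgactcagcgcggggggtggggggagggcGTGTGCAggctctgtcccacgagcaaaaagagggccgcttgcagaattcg
Mt1: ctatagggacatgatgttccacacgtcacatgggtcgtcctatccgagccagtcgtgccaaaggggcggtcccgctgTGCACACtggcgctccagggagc

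The 120 bases before the start of Nqo1, Gsta1 and Gsto1 are shown because these genes were among the most raised members, and none of their windows held TGACNNNGC, which says only that these letters are not in the window. They lie at chr8:107403206-107403325 (minus strand), chr9:78230549-78230668 (plus strand) and chr19:47854853-47854972 (plus strand).
Nqo1: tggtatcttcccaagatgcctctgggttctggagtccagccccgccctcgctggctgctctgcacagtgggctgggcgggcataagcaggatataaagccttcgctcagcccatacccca
Gsta1: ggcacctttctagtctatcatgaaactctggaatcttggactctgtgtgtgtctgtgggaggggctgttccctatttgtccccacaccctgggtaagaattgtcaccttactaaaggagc
Gsto1: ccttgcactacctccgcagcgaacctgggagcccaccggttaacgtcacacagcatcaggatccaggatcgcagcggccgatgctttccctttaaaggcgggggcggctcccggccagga

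Gstp1 and Gstp2 are neighbouring copies whose levels differed widely, and the AP-1 core is in capitals in both, from chr19:4037933-4038032 and chr19:4042242-4042341 on the minus strand. Over the 250 bases before the start sites the copies were identical in 208 of 265 aligned columns, or 78.5%.
Gstp1: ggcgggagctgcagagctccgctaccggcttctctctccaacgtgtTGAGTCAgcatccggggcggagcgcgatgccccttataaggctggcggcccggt
Gstp2: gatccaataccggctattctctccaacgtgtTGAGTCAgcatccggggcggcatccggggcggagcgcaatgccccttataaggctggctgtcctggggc

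Changes were measured in a limma fit of log2(TPM + 1) over all genes, in which a coefficient is the difference in that log2 value between groups and understates the change of genes near or below 1 TPM. A gene was called, and is said to have risen or fallen, at a Benjamini-Hochberg adjusted p-value under 0.01 together with an absolute coefficient over 1. With UK5099 5 members rose (12.2%) and 1 fell (2.44%), where 0.928% of all genes rose and 0.912% fell. Butyrate raised 6 members (14.6%) and lowered 1, against 1.13% and 2.42% of all genes. The combination raised 7 (17.1%) and lowered 1, against 1.79% and 4.63% of all genes. The 13345 genes averaging 1 TPM or more are nearer to the members in level, and among them 1.69%, 2.01% and 2.99% rose with UK5099, butyrate and the combination. In the same order 1.52%, 4.19% and 8.15% of them fell. All 3 comparisons share the vehicle samples. The first UK5099 and first combination samples stood apart, differing from the others of their group by a chi-square of 6.30 to 6.65 per degree of freedom over genes, where all other pairs within a group were at 1.93 to 2.65. The first combination sample was also the highest of its group for Gsta1, Gsta4, Gsto1, Gsto2, Gstp2, Nqo1 and Mgst2. With both left out, the same 6, 7 and 8 members were called for UK5099, butyrate and the combination, and the combination coefficients of Gsta1, Gsta4 and Gsto1 were 4.16, 2.86 and 2.50.

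Smaller differences were common among members and among all genes. At an adjusted p-value under 0.01 with no limit on size, 31 members differed with UK5099 (17 higher and 14 lower), 35 with butyrate (20 higher and 15 lower) and 32 with the combination (20 higher and 12 lower). The same rule took 33.0%, 45.6% and 51.0% of all genes. Among genes of at least 1 TPM it took 50.4%, 69.2% and 75.4%, so the members' share with the combination, 78.0%, was close to that background. The median coefficient of the members stood at 0.06 under UK5099, 0.10 under butyrate and 0.01 under both drugs. Over all genes the medians were -0.03, -0.07 and -0.11, and over genes of at least 1 TPM they were -0.12, -0.30 and -0.41. Those shifts come with the deposited scale. Once scaled by the median of ratios, the members had medians of 0.20, 0.40 and 0.45.

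**Figure D1:**
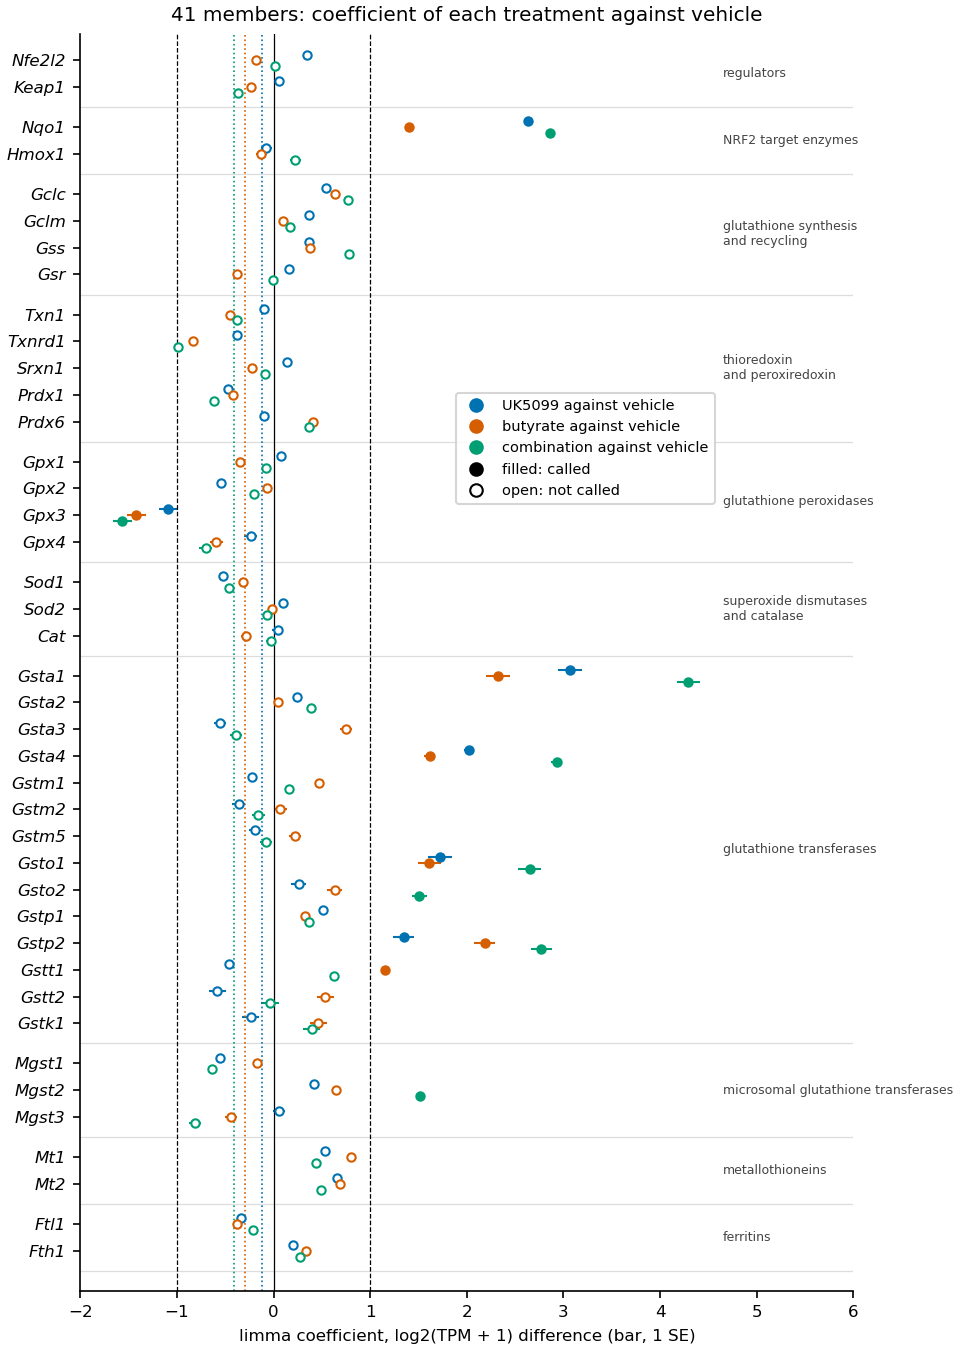
Limma coefficients (x axis, difference in log2(TPM + 1) from vehicle) of all 41 members, grouped by role, for UK5099, butyrate and the combination. Bars are 1 SE, filled points are called, dashed lines mark coefficients of -1 and 1 and dotted lines the median over genes of at least 1 TPM (-0.12, -0.30 and -0.41). Nqo1, Gsta1, Gsta4, Gsto1 and Gstp2 lie above 1 for all 3 treatments, and Gpx3 lies below -1.

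Among the regulators, the NRF2 gene Nfe2l2 (chromosome 2, 75505857 to 75534985, minus strand, in the coordinates of the table) was at 39.9, 42.0 and 39.7 TPM in the vehicle samples, 49.8, 52.9 and 53.1 under UK5099, 35.4, 36.0 and 35.7 under butyrate and 40.3, 41.1 and 41.1 under the combination. All UK5099 samples were above, and all butyrate samples below, the vehicle range, while the combination lay inside it. The coefficient was 0.35 ± 0.028 (SE) for UK5099 (limma adjusted p = 7.48e-06), -0.18 for butyrate (adjusted p = 4.13e-04) and 0.01 for the combination (adjusted p = 0.812). The butyrate direction turned to 0.13 after median of ratios scaling, and the combination then stood at 0.46. Keap1, its inhibitor, was at 35.3, 33.7 and 34.0 TPM in the vehicle samples, 35.6, 35.2 and 36.1 under UK5099, 29.8, 28.4 and 28.9 under butyrate and 26.2, 26.4 and 26.9 under the combination. Its values overlapped vehicle with UK5099 and lay below vehicle with butyrate and the combination, with coefficients of 0.05, -0.23 and -0.36. The lower values also turned with that scaling, to 0.07 and 0.09, so no direction of the 2 regulator transcripts with butyrate held under both scalings.

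Nqo1, which encodes a quinone reductase and is a standard read-out of NRF2 activity, rose with every treatment (chromosome 8, 108114857 to 108129838, minus strand). Its values were 7.27, 7.74 and 7.86 TPM in the vehicle samples, 50.0, 53.2 and 54.6 under UK5099, 21.3, 21.6 and 22.2 under butyrate and 64.4, 59.3 and 61.7 under the combination. No groups overlapped, and the order from low to high was vehicle, butyrate, UK5099, combination in all samples. The fold over vehicle reached 6.90 under UK5099, 2.85 under butyrate and 8.11 under both drugs. The coefficients were 2.64 ± 0.041 (SE), 1.40 ± 0.041 (SE) and 2.86 ± 0.041 (SE), with limma adjusted p-values of 4.55e-10, 4.35e-09 and 4.88e-11. Nqo1 was higher with UK5099 than with butyrate, and it was the member that fell in the direct comparison of butyrate with UK5099 (coefficient -1.24, adjusted p = 2.20e-08). Heme oxygenase 1, Hmox1, another well known NRF2 target that breaks down heme, did not share this pattern, at 12.9, 11.99 and 13.2 TPM in the vehicle samples, 10.8, 12.5 and 12.7 under UK5099, 11.9, 11.4 and 11.3 under butyrate and 15.0, 14.6 and 15.3 under the combination. It overlapped vehicle with UK5099, lay just below it with butyrate and stood above it with the combination, where the coefficient was 0.22 ± 0.057 (SE, adjusted p = 0.00710). Its UK5099 and butyrate coefficients of -0.08 and -0.13 did not pass the test, and they turned to 0.06 and 0.17 after median of ratios scaling.

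All 4 genes of glutathione synthesis and recycling were higher with UK5099 at an adjusted p-value under 0.01, though none passed the limit on size. In either direction that rule took 33.0% of all genes with UK5099 and 50.4% of genes of at least 1 TPM. Gclc, the catalytic subunit of glutamate-cysteine ligase, was at 5.65, 5.66 and 5.52 TPM in the vehicle samples, 8.44, 8.61 and 8.84 under UK5099, 9.19, 9.29 and 9.32 under butyrate and 10.3, 10.1 and 10.4 under the combination. Each treated group was above all vehicle samples, and the folds were 1.54, 1.65 and 1.83. With median of ratios scaling the combination passed the limit, with a coefficient of 1.17 against 0.77 as deposited. The modifier subunit gene Gclm was at 22.7, 22.9 and 22.5 TPM in the vehicle samples, 28.5, 30.1 and 29.96 under UK5099, 24.1, 24.5 and 24.7 under butyrate and 25.1, 26.0 and 25.9 under the combination, with coefficients of 0.37, 0.10 and 0.17. On this scale it was highest with UK5099, but after median of ratios scaling the coefficients were 0.51, 0.40 and 0.62, highest with the combination. Glutathione synthetase, Gss, was at 4.38 ± 0.0380 TPM in vehicle and 8.26 ± 0.486 with the combination (mean ± SD, n = 3), a fold of 1.89, and its combination coefficient of 0.78 also passed the limit after that scaling, at 1.18. Glutathione reductase, Gsr, which regenerates reduced glutathione, was at 35.2 ± 0.995 TPM in vehicle, 39.4 ± 1.60 with UK5099 and 26.9 ± 0.568 with butyrate. Its combination values overlapped vehicle, and after scaling its combination coefficient was 0.45 in place of -0.00.

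The soluble glutathione transferases, which attach glutathione to electrophilic compounds, held most of the called members. Of the 14, UK5099 raised 4, butyrate 5 and the combination 5, and none fell. At an adjusted p-value under 0.01 with no limit on size 6 were higher and 5 lower with UK5099, 11 were higher and none lower with butyrate, and 10 were higher and 1 lower with the combination. Each time these made 78.6% of the 14, against 50.4%, 69.2% and 75.4% of the genes of at least 1 TPM, so the shares with butyrate and the combination were near the background. The median coefficients of the 14 were 0.02, 0.59 and 0.39.

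Gsta1, an alpha class transferase (chromosome 9, 78137938 to 78149966, plus strand), had the highest coefficients of the 41 members with all treatments against vehicle. It was at 0.493, 0.486 and 0.458 TPM in the vehicle samples, 10.7, 10.2 and 13.5 under UK5099, 6.32, 6.74 and 6.15 under butyrate and 33.9, 24.7 and 26.2 under the combination. No groups overlapped, and every combination sample was above every sample with 1 drug. The coefficients were 3.07 ± 0.12 (SE), 2.32 ± 0.12 (SE) and 4.29 ± 0.12 (SE, limma adjusted p = 7.80e-08, 1.42e-07 and 1.56e-09). In vehicle the values came to 37.5 to 45.9 fragments, and only 1 of 8 of its values under 1000 fragments was a whole number of fragments, so fragments were assigned in fractions and its level is uncertain. With which genes they were shared was not tested. Its close copy Gsta2 stayed below 1 TPM, at 0.0115 ± 0.00356 TPM in vehicle and 0.321 ± 0.0656 TPM with the combination, and shares this uncertainty.

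Gsta4, whose enzyme acts on the lipid peroxidation product hydroxynonenal, was at 33.5, 34.3 and 32.7 TPM in the vehicle samples, 138, 134 and 145 under UK5099, 104, 104 and 106 under butyrate and 289, 247 and 252 under the combination (chromosome 9, 78090056 to 78116631, plus strand). The groups were fully apart. The fold over vehicle reached 4.16 under UK5099, 3.13 under butyrate and 7.83 under both drugs, with coefficients of 2.02 ± 0.055 (SE), 1.62 ± 0.055 (SE) and 2.93 ± 0.055 (SE, limma adjusted p = 8.59e-09, 9.76e-09 and 1.64e-10). Gsto1, an omega class enzyme that reduces dehydroascorbate and mixed disulfides, was at 194, 193 and 181 TPM in the vehicle samples, 656, 561 and 669 under UK5099, 585, 579 and 576 under butyrate and 1465, 1042 and 1112 under the combination (chromosome 19, 47843409 to 47853229, plus strand). UK5099 and butyrate overlapped each other and were both above vehicle, and the first combination sample stood above the other two. Its coefficients were 1.72, 1.61 and 2.65 (limma adjusted p = 2.28e-06, 1.39e-06 and 2.68e-08). The direct difference between butyrate and UK5099 was -0.11 ± 0.12 (SE, adjusted p = 0.505), so none was detected.

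The neighbouring gene Gsto2 was far lower, at 0.123, 0.225 and 0.161 TPM in the vehicle samples, 0.363, 0.402 and 0.430 under UK5099, 0.877, 0.760 and 0.808 under butyrate and 2.796, 1.96 and 2.27 under the combination. Its groups did not overlap. It was called only with the combination against vehicle among the 3 treatments (1.51 ± 0.078 (SE), limma adjusted p = 8.37e-08), but because its vehicle values, 17 to 30 fragments, lie far below 1 TPM, its linear folds of 2.34, 4.80 and 13.8 show more than the coefficients. With voom on the recovered fragments the coefficients were 1.41, 2.60 and 4.26, all called. Mgst2, a microsomal transferase that can also make leukotriene C, had the same order of groups, at 0.0609, 0.0908 and 0.0698 TPM in the vehicle samples, 0.411, 0.415 and 0.466 under UK5099, 0.759, 0.650 and 0.625 under butyrate and 2.14, 1.99 and 2.07 under the combination. Each treated group was above vehicle and the combination was above both single drugs. Its folds were 5.83, 9.18 and 28.0, its combination coefficient was 1.51 ± 0.032 (SE, adjusted p = 2.91e-10) and its vehicle values came to 9 to 13 fragments. The other microsomal genes were lower with the combination, Mgst1 at -0.64 and Mgst3 at -0.82.

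The pi class pair differed in size of response. Gstp2 (chromosome 19, 4090285 to 4096023, minus strand) was at 3.57, 2.84 and 4.29 TPM in the vehicle samples, 11.3, 10.2 and 10.1 under UK5099, 20.2, 17.7 and 20.9 under butyrate and 32.8, 28.5 and 28.5 under the combination, with no overlap between groups. Its coefficients were 1.35 ± 0.11 (SE), 2.19 ± 0.11 (SE) and 2.77 ± 0.11 (SE, limma adjusted p = 1.04e-05, 1.49e-07 and 1.80e-08). Gstp1 was at 488 ± 10.1 TPM in the vehicle samples, 694 ± 9.21 under UK5099, 613 ± 6.71 under butyrate and 630 ± 5.82 under the combination (mean ± SD, n = 3 each), with coefficients of 0.51, 0.33 and 0.37, none past the limit on size. Only 2 of 7 of the values of Gstp2 under 1000 fragments were whole, so its level is uncertain too.

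**Figure D2:**
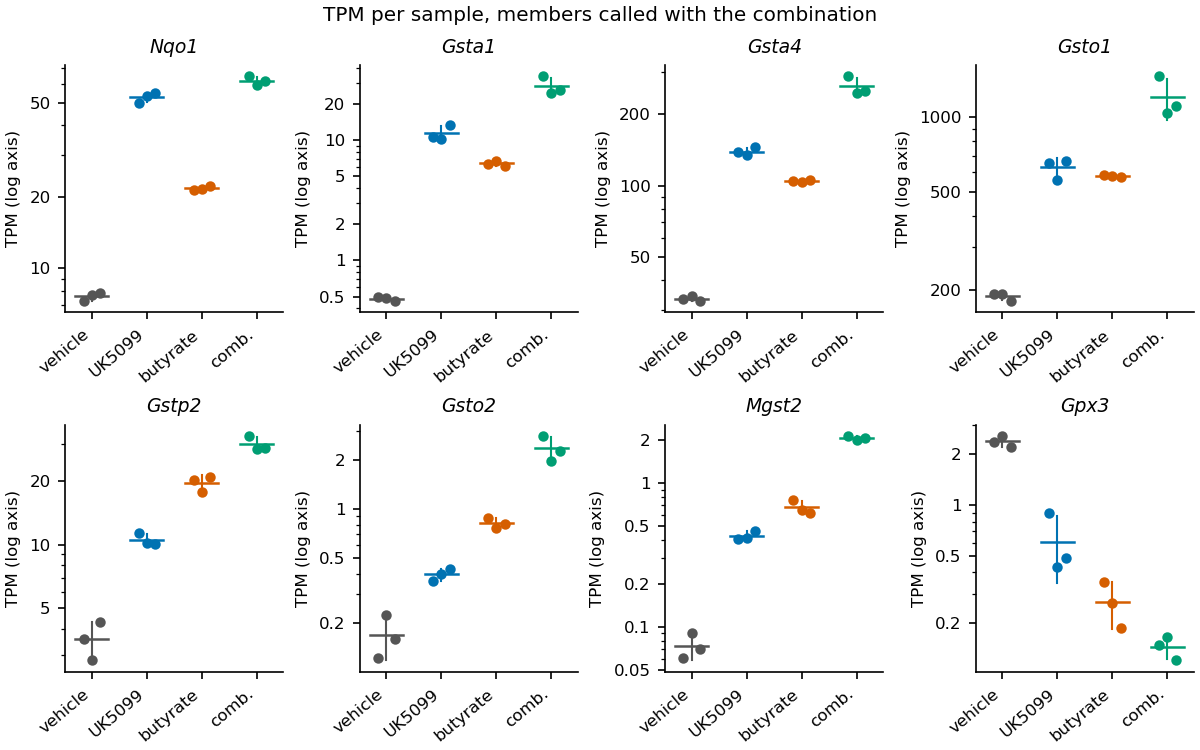
TPM of the 8 members called with the combination against vehicle, 1 point per sample on log axes, with the mean (horizontal line) and SD (vertical line) of 3 samples per group. Nqo1 and Gsta1 have all samples in the order vehicle, butyrate, UK5099, combination, Gstp2, Gsto2 and Mgst2 have butyrate above UK5099, and Gpx3 declines from vehicle to the combination.

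A further group of transferases went opposite ways with the 2 drugs. Gsta3, an alpha class enzyme, was at 2.21, 2.33 and 1.93 TPM in the vehicle samples, 1.13, 1.34 and 0.983 under UK5099, 4.47, 4.19 and 4.22 under butyrate and 1.39, 1.44 and 1.42 under the combination. All UK5099 samples were below and all butyrate samples above vehicle, and on the deposited scale the combination lay nearer to UK5099 than to butyrate. After median of ratios scaling its combination coefficient was -0.09 (limma adjusted p = 0.256), against -0.44 with UK5099. Butyrate added to UK5099 then gave 0.35 (limma adjusted p = 9.69e-04), and UK5099 added to butyrate gave -1.06 (limma adjusted p = 1.58e-06). The combination thus stayed nearer to UK5099 than to butyrate, while its difference from vehicle, -0.38 as deposited, depended on the scaling. The difference of butyrate from UK5099 was 1.301 ± 0.062 (SE, limma adjusted p = 1.86e-07), and UK5099 added to butyrate gave -1.13 ± 0.062 (SE, adjusted p = 1.40e-06). Gstt1, of the theta class, was at 2.30, 1.93 and 2.04 TPM in the vehicle samples, 1.24, 1.28 and 1.203 under UK5099, 5.79, 5.85 and 6.00 under butyrate and 3.65, 3.92 and 3.68 under the combination. It too was below vehicle with UK5099 and above it with butyrate, but the combination stayed above vehicle. Butyrate alone raised it (1.16 ± 0.041 (SE), adjusted p = 1.23e-08) and its interaction term was -0.08 (adjusted p = 0.458). Gstt2 was at 4.71, 5.06 and 5.62 TPM in the vehicle samples, 3.34, 2.65 and 3.31 under UK5099, 8.46, 7.08 and 8.15 under butyrate and 5.42, 4.69 and 4.81 under the combination, with the combination overlapping vehicle and a difference of butyrate from UK5099 of 1.12 ± 0.090 (SE, adjusted p = 5.59e-06). For Gstt1 and Gstt2 all values under 1000 fragments were whole (12 of 12 and 12 of 12), and for Gsta3 9 of 11 were. The mu class members Gstm1, Gstm2 and Gstm5 had butyrate coefficients of 0.47, 0.07 and 0.22 and UK5099 coefficients of -0.22, -0.36 and -0.19, on values that were in large part not whole.

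**Figure D3:**
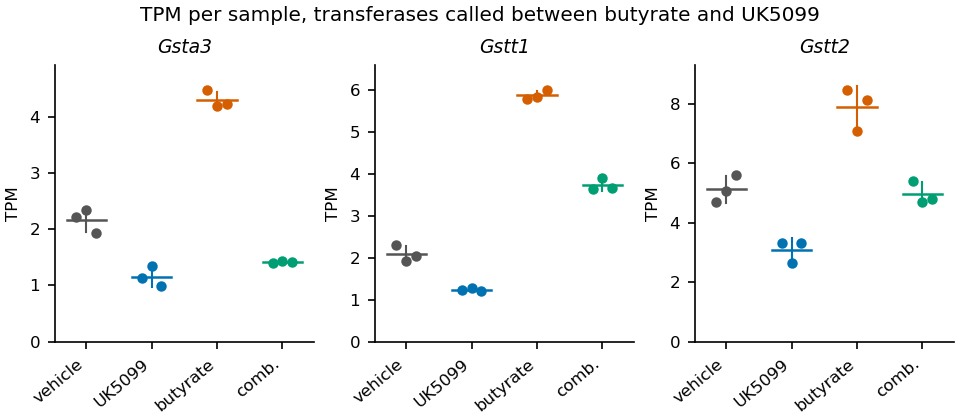
TPM of Gsta3, Gstt1 and Gstt2 per sample, with the mean (horizontal line) and SD (vertical line) of 3 samples per group, on axes that start at 0. In each gene all UK5099 samples lie below, and all butyrate samples above, the vehicle samples.

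Direct comparisons between treated groups called few members beyond these. Adding butyrate to UK5099 raised 5 members and lowered none, against 1.97% of all genes called in either direction, and these were Gsta1, Gsto2, Gstp2, Gstt1 and Mgst2. Adding UK5099 to butyrate raised 4, Nqo1, Gsta1, Gsta4 and Gsto1, and lowered Gsta3, against 0.908% of all genes. The rise of Gsto1 there, at 1.04, was no longer called at 0.89 without the first combination sample. Between butyrate and UK5099 3 members were higher with butyrate and 1 was lower, against 1.86% of all genes, and all 4 are named above. The interaction term asks whether the combination differs from the sum of both single effects on the log2 scale. It was called for 2 members, Nqo1 (-1.17 ± 0.059 (SE), limma adjusted p = 1.72e-06) and Gsta1 (-1.10 ± 0.17 (SE), adjusted p = 0.00160), both below 0, against 1.01% of all genes. For Gsta1 the term was -0.93 after median of ratios scaling and -0.99 without the third UK5099 sample, each of which ended its call. Without the first UK5099 sample Gpx3 had a called term as well, at 1.07. For Mgst2 the sign of the term depended on the pseudocount, at 0.46 with 1, -0.13 with 0.1 and -0.81 with 0.01, of which only the first passed an adjusted p-value under 0.01.

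No member of the peroxidases or of the thioredoxin system rose. Gpx3, which encodes the secreted glutathione peroxidase, fell with every treatment (chromosome 11, 54793279 to 54801203, plus strand). It was at 2.38, 2.58 and 2.22 TPM in the vehicle samples, 0.902, 0.428 and 0.488 under UK5099, 0.352, 0.264 and 0.187 under butyrate and 0.149, 0.165 and 0.121 under the combination. All treated samples were below all vehicle samples, and all of its values were whole fragments, 125 to 147 in vehicle and 10 to 13 with the combination. The coefficients were -1.09 ± 0.099 (SE), -1.42 ± 0.099 (SE) and -1.57 ± 0.099 (SE, limma adjusted p = 1.61e-05, 1.06e-06 and 3.57e-07), and the UK5099 call was lost at -0.95 after median of ratios scaling. The gastrointestinal peroxidase gene Gpx2, at a far higher level, was at 555, 562 and 551 TPM in the vehicle samples, 377, 390 and 373 under UK5099, 522, 532 and 540 under butyrate and 477, 489 and 487 under the combination. It was lowest with UK5099 (-0.55 ± 0.020 (SE), adjusted p = 4.59e-08), while its butyrate and combination coefficients of -0.07 and -0.20 turned to 0.25 and 0.27 after scaling. Gpx4, which reduces lipid peroxides in membranes, had coefficients of -0.24, -0.59 and -0.70, of which the first did not pass the test (limma adjusted p = 0.0178). They shrank to -0.10, -0.30 and -0.28 after scaling. Only 1 of 11 of its values under 1000 fragments was whole, so its level is uncertain.

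Thioredoxin reductase 1, Txnrd1, usually counted among NRF2 targets, was at 17.4, 18.2 and 17.0 TPM in the vehicle samples, 13.2, 13.1 and 13.6 under UK5099, 9.49, 9.18 and 9.39 under butyrate and 7.96, 8.19 and 8.77 under the combination. No treated sample reached the vehicle range. The coefficient for the combination was -0.99 ± 0.034 (SE, limma adjusted p = 5.56e-09), just inside the limit on size. It passed the limit at -1.01 without the third vehicle sample, at -1.03 without the third combination sample and barely without the first vehicle sample, but was smaller at -0.57 after median of ratios scaling and -0.61 with voom. Srxn1, the gene of sulfiredoxin, which repairs overoxidised peroxiredoxins, was at 53.2, 51.8 and 52.2 TPM in the vehicle samples, 57.6, 57.5 and 57.9 under UK5099, 42.7, 46.4 and 44.7 under butyrate and 52.6, 47.2 and 48.4 under the combination. Its combination values overlapped vehicle, and its butyrate coefficient of -0.23 turned to 0.08 after scaling. Of the 5 genes of this system none was called, and Prdx1 and Prdx6, both peroxide reductases, differed in sign with butyrate (-0.42 and 0.41). Superoxide dismutases and catalase lay between -0.53 and 0.09 in all 3 comparisons, and with the combination the values of Sod2 and Cat, -0.07 and -0.02, turned to 0.33 and 0.41 after scaling. The ferritin chains, which store iron, were split, with the light chain gene Ftl1 at -0.34, -0.38 and -0.22 and the heavy chain gene Fth1 at 0.21, 0.33 and 0.27. With the combination Ftl1 turned to 0.25 after median of ratios scaling, where Fth1 was at 0.73.

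The metallothionein genes Mt1 (chromosome 8, 94905710 to 94906955, plus strand) and Mt2 (chromosome 8, 94899292 to 94900196, plus strand) were higher in all treated groups than in vehicle. Mt1 was at 1352, 1343 and 1363 TPM in the vehicle samples, 2011, 1964 and 1884 under UK5099, 2324, 2376 and 2378 under butyrate and 1814, 1844 and 1854 under the combination. The combination lay below butyrate alone and overlapped no other group, and all treated samples exceeded vehicle. The coefficients of Mt1 were 0.53 ± 0.023 (SE), 0.80 ± 0.023 (SE) and 0.44 ± 0.023 (SE, limma adjusted p = 1.24e-07, 3.23e-09 and 7.81e-08), and its interaction term was -0.89 ± 0.032 (SE, adjusted p = 2.67e-07), inside the limit on size. Mt2 was at 3432, 3353 and 3423 TPM in the vehicle samples, 5321, 5476 and 5275 under UK5099, 5445, 5429 and 5550 under butyrate and 4677, 4854 and 4846 under the combination. UK5099 and butyrate overlapped each other, and on the deposited scale both were above the combination, which was above vehicle. The difference of butyrate from UK5099 was 0.27 ± 0.023 (SE) for Mt1 (adjusted p = 6.65e-06) and 0.03 ± 0.020 (SE) for Mt2 (adjusted p = 0.259). Mt2's coefficients against vehicle were 0.65 ± 0.020 (SE), 0.69 ± 0.020 (SE) and 0.49 ± 0.020 (SE) and its interaction term was -0.85 ± 0.029 (SE, adjusted p = 1.88e-07). With butyrate both passed the limit on size after median of ratios scaling, at 1.12 and 1.00. Adding butyrate to UK5099 gave Mt1 -0.09 and Mt2 -0.16 as deposited but 0.23 and 0.15 after that scaling, so the order of the combination and UK5099 alone depended on it for both genes. Adding UK5099 to butyrate gave Mt2 -0.19 as deposited and -0.04 after it (adjusted p = 0.196).

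**Figure D4:**
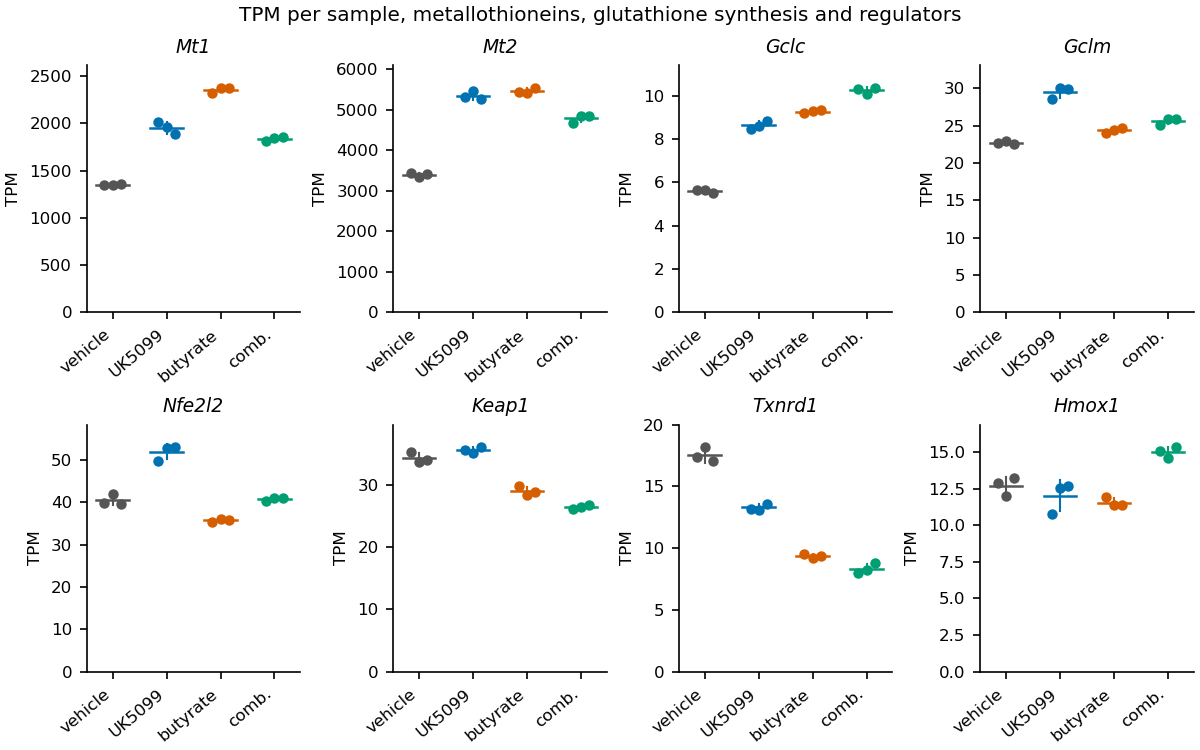
TPM per sample of the metallothioneins Mt1 and Mt2, the glutamate-cysteine ligase genes Gclc and Gclm, the regulators Nfe2l2 and Keap1, and Txnrd1 and Hmox1, on axes that start at 0. Lines give the mean (horizontal) and SD (vertical) of 3 samples per group. Mt1, Mt2, Gclc and Gclm lie above vehicle in every treated sample, and Txnrd1 lies below.

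To compare levels between genes, TPM was recomputed per exonic length (GENCODE vM21 lengths, matched by gene ID). That length joins the exons of all annotated transcripts of a gene. For Mt1 (1246 bases) and Gpx1 (1441 bases) it equals the whole gene span, so no intron was taken out, whereas Mt2 has 588 of 905 bases. The levels of Mt1 and Gpx1 may thus be too low, and their ranks and the metallothionein sums depend on the annotation. On that scale Mt2 was the most abundant member in vehicle, at 2952 ± 41.8 TPM (SD, n = 3), followed by Ftl1 at 942 ± 9.83, Mt1 at 763 ± 8.76 and Txn1 at 749 ± 12.9, the last pair with overlapping ranges. Gsto1 was at 518 ± 17.5 and Gsta4 at 396 ± 8.85, both below Gpx1 at 570 ± 7.05. With the combination Mt2 was still first at 4537 ± 119, but Gsto1 at 3598 ± 655 and Gsta4 at 3384 ± 276 came next, with overlapping ranges, ahead of Mt1 at 1130 ± 18.3. The summed level of the 14 soluble transferases was 1500 ± 32.4 exonic TPM in vehicle, 4285 ± 219 under UK5099, 3987 ± 14.8 under butyrate and 8091 ± 966 under the combination, where the first sample, at 9196, stood above the others at 7406 and 7671. Gsto1 and Gsta4 together made most of this sum in every group, so it does not show a rise across the class. The 2 metallothioneins summed to 3714 ± 49.1, 5833 ± 151, 6597 ± 56.3 and 5667 ± 137. The 4 genes of glutathione synthesis and recycling moved far less, with sums of 426 ± 9.95, 511 ± 12.4, 411 ± 6.19 and 514 ± 6.73, and the 5 of the thioredoxin system went from 1348 ± 22.7 in vehicle to 1133 ± 9.83 with the combination. After median of ratios scaling of the exonic values that last direction turned, from 1188 ± 18.6 to 1267 ± 11.8, and the order of the metallothionein sums under UK5099 and the combination turned too (5625 ± 150 and 6333 ± 97.0).

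Scaling decided the sign of several small coefficients. Median of ratios scaling turned 3 members under UK5099, 8 under butyrate and 13 under both drugs, of which none had been called. After it, 33 members were higher and 6 lower with the combination at an adjusted p-value under 0.01, in place of 20 and 12. Nqo1, Gsta1, Gsta4, Gsto1 and Gstp2 stayed called in the same direction for UK5099, butyrate and the combination.

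**Figure D5:**
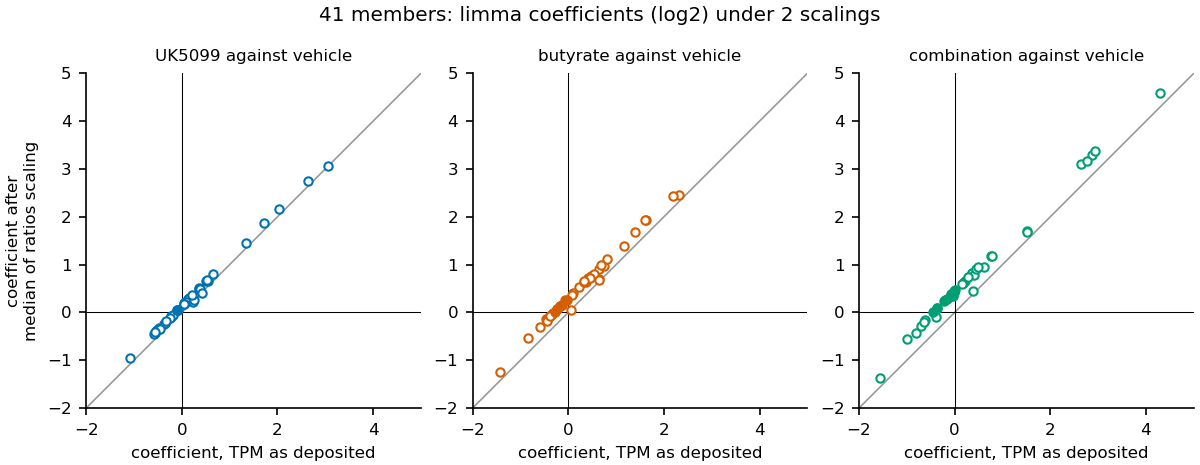
Limma coefficients of the 41 members on TPM as deposited (x axis) and after median of ratios scaling (y axis), both on the log2 scale, for each treatment against vehicle. Filled points change sign (3, 8 and 13 members), the grey line marks equal values, and most points lie above it with butyrate and the combination.

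Of 83 further genes listed for the same systems, 77 were in the table. UK5099 raised 4 and lowered 3, butyrate raised 4 and lowered 5, and the combination raised 8 and lowered 9. Of all genes 0.928% rose and 0.912% fell with UK5099, 1.13% and 2.42% with butyrate, and 1.79% and 4.63% with the combination. Among genes of at least 1 TPM 1.69%, 2.01% and 2.99% rose and 1.52%, 4.19% and 8.15% fell. The median coefficients of the 77 genes were -0.07, -0.18 and -0.26. Another metallothionein gene, Mt4, which is known from stratified epithelia, was at 0.411, 0.849 and 0.327 TPM in the vehicle samples, 14.0, 14.7 and 14.5 under UK5099, 13.9, 11.8 and 13.2 under butyrate and 17.1, 13.1 and 14.7 under the combination. It was low in all vehicle samples, at 5 to 10 fragments, and level across the treated groups, with coefficients of 3.34, 3.20 and 3.39. Aldh3a1, an aldehyde dehydrogenase, was at 5.80, 8.38 and 6.21 TPM in the vehicle samples, 54.5, 51.9 and 64.4 under UK5099, 49.3, 51.5 and 50.3 under butyrate and 94.1, 75.0 and 83.8 under the combination, and its coefficients were 2.90, 2.73 and 3.46. Every treated sample was above vehicle, and the combination above both single drugs.

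The zinc importer gene Slc39a4 went the other way from the metallothioneins. It was at 251, 245 and 248 TPM in the vehicle samples, 73.7, 75.5 and 72.3 under UK5099, 31.8, 31.0 and 35.5 under butyrate and 21.1, 23.3 and 25.0 under the combination, with no overlap between groups and coefficients of -1.73, -2.88 and -3.37. The iron exporter gene Slc40a1 fell from 8.34 ± 0.0938 TPM in vehicle to 1.89 ± 0.134 under UK5099, 1.49 ± 0.0533 under butyrate and 0.494 ± 0.0456 under both. The transferrin receptor gene Tfrc had coefficients of -0.78, -1.02 and -1.41, and its butyrate call was lost at -0.72 after median of ratios scaling. Biliverdin reductase B, Blvrb, which acts on a product of heme breakdown, had coefficients of 0.72, 1.08 and 1.499. Among genes of glutathione itself, Ggt6, of the gamma-glutamyltransferase family, rose (1.16, 2.04 and 2.27). Glutaredoxin, Glrx, rose with UK5099 (1.00) and the combination (1.34), and the UK5099 call was lost at 1.00 without the second or the third vehicle sample and at 0.97 without the third UK5099 sample. Chac1, which degrades glutathione, fell with UK5099 (-1.17) and butyrate (-1.33) and was at -0.61 with the combination. The transferase Gstm7 fell with butyrate (-1.43) and the combination (-1.71).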

How the data were processed

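RNA depleted of rRNA and enriched for mRNA was sequenced from both ends by the study. The deposited values are TPM made by the authors and total 1000000 per sample. The submitters' processing notes name STAR 2.7.9a, Partek and GRCm39, whereas the study's methods name RSEM and GRCm38; which steps gave the table is not stated in the sources used here. The length in the table equals stop minus start in 100% of genes, that is, the genomic span, so values of genes with long introns are low against other genes, and within a gene the length acts only through the common total and the pseudocount, where exonic length turned the sign of 3 small coefficients. The printed end is 1 base before the table's stop. Table coordinates (GRCm39 by those notes) were not combined with the GRCm38 promoter windows.

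Members and lists were chosen with earlier results of these data known. The members named in detail were those called in at least 1 of 7 contrasts with a group mean of at least 1 TPM, plus 11 set genes, 21 in all; of the other pathway genes the 10 with the largest single-drug coefficient among those called were named, and others are given for context. limma 3.58.1 (R 4.3.3) was fitted to log2(TPM + 1) of all 24674 genes in 12 samples, with UK5099, butyrate and their interaction as terms and 1 spread per gene. Fragments were recovered from the smallest steps of the TPM values, and 66.2% to 67.5% of values under 1000 fragments were whole within 0.02. The lowest sum of fragments of a gene over the 12 samples was 10. All replicates differed by more than sampling noise (chi-square per degree of freedom of 1.93 or more) and each counted once. Same-numbered samples did not deviate together (r from -0.11 to 0.03 over 18 pairs, 0 over 0.1), so no pairing by number was detected. This cannot show whether same-numbered samples shared an origin, and the main fit did not pair them. Alternatives were other pseudocounts, filters, scalings, lengths, models and limits and leaving out each sample. The fit and the step recovery were tested on simulated data. Strand use in counting is not stated, so antisense reads cannot be set apart. Motifs and figures used Python 3.11.15, Biopython 1.88 and matplotlib 3.10.9.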

Additional observations from a re-analysis of the deposited data

Results flagged for a closer look

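Among the 41 members and the 77 further pathway genes, the effect of one drug differed with the other drug present in 7. These had a called interaction term of the limma fit (adjusted p-value under 0.01 and absolute coefficient over 1). They were 2 members and 5 of the further genes, and 1.01% of all 24674 genes had such a term. For Nqo1 the term was -1.17 ± 0.059 (SE, adjusted p = 1.72e-06), with butyrate coefficients of 1.40 from vehicle and 0.23 from UK5099. For Gsta1 it was -1.10 ± 0.17 (SE, adjusted p = 0.00160), with butyrate coefficients of 2.32 from vehicle and 1.23 from UK5099. Mt4 had the largest term of the genes named, -3.16 ± 0.18 (SE, adjusted p = 4.00e-06), with 3.20 from vehicle and 0.04 from UK5099. Its vehicle values came to 5 to 10 fragments, so the size of its term depends on the pseudocount. Txnip, which encodes the thioredoxin interacting protein, is named here after its values were seen, and its term was -1.36 ± 0.050 (SE, adjusted p = 3.07e-07), with butyrate coefficients of 0.97 from vehicle and -0.39 from UK5099. Aldh3a1 stood at -2.18 ± 0.18 (SE, adjusted p = 4.09e-05). Above 0 were Slc39a4, at 1.25 ± 0.087 (SE, adjusted p = 1.25e-05), and Chac1, at 1.88 ± 0.12 (SE, adjusted p = 8.88e-06). Chac1 fell with each drug given alone, while butyrate added to UK5099 put it 0.56 higher. With 3 samples per group no single value of a gene was tested as an outlier.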

How the results depend on the processing

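The counts of called members depended mainly on the limit on size. With no limit the counts were 31 for UK5099, 35 for butyrate, 32 for the combination, 25 for the interaction, 34 for butyrate added to UK5099, 31 for UK5099 added to butyrate and 34 for butyrate against UK5099, in place of 6, 7, 8, 2, 5, 5 and 4. With a limit of 0.58 they were 15 for butyrate, 16 for the combination, 8 for the interaction, 10 for butyrate added to UK5099, 8 for UK5099 added to butyrate and 8 for butyrate against UK5099. Voom on recovered fragments called 14 members for butyrate, 10 for butyrate added to UK5099, 8 for UK5099 added to butyrate and 8 for butyrate against UK5099. Pseudocounts of 0.1 and 0.01 and exonic length each called 8 for UK5099 added to butyrate. Testing only genes averaging 1 TPM or more, which leaves fewer members to test, called 5 for the combination and 3 for butyrate added to UK5099. Median of ratios scaling and quantile normalisation each called 1 interaction. Leaving out each sample in turn gave 6 for UK5099, 7 for butyrate, 8 to 9 for the combination, 1 to 3 for the interaction, 5 to 6 for butyrate added to UK5099, 4 to 5 for UK5099 added to butyrate and 4 for butyrate against UK5099. The interaction count of 1 came without the third UK5099 sample. Leaving out the first UK5099 and first combination samples together, chosen after seeing the data, gave 6, 7, 8, 3, 5, 4 and 4.

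Among the coefficients of named genes 11 changed sign under at least 1 alternative, none of them called. After median of ratios scaling, quantile normalisation and voom, in that order, Nfe2l2 with butyrate became 0.13, 0.17 and 0.13, Keap1 with butyrate 0.07, 0.14 and 0.07, Keap1 with the combination 0.09, 0.10 and 0.09, Hmox1 with UK5099 0.06, 0.05 and 0.06, Hmox1 with butyrate 0.17, 0.22 and 0.17, Srxn1 with butyrate 0.08, 0.15 and 0.08, Srxn1 with the combination 0.37, 0.36 and 0.38, and Gstt2 with the combination 0.35, 0.35 and 0.41. Gpx2 became 0.25, 0.04 and 0.25 with butyrate, and with the combination 0.27 under both median of ratios scaling and voom. With exonic length Srxn1 and Gstt2 with the combination became 0.04 and 0.07, and Gpx2 with butyrate 0.05. With nuclear protein-coding genes alone Gpx2 with butyrate became 0.06 and Gstt2 with the combination 0.02. Leaving out single samples moved Nfe2l2 with the combination between -0.00 and 0.04 and Gstt2 with the combination between -0.09 and 0.02. The cause of the scaling shifts was not tested.

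With replicate number as a term, the replicate block fit, the counts were 6, 7, 8, 2, 5, 5 and 4 again, and the replicate block changed no other call. Low counts limit Gsto2, Mgst2, Gpx3 and, among the further genes, Mt4, whose coefficients depend on the pseudocount. Fractional fragments limit Gpx4, Gsta1, Gsta2, Gstp2 and the mu class genes. The intervals behind all values cover only the 3 samples per group. The origin of the samples, and the difference between scalings in the sign of small changes, cannot be settled from the table.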
